A study of Mus musculus with 6 samples.

Results

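Immediate early response genes are typically switched on within minutes of a stimulus, from existing proteins alone. The 38 genes described here also include family members that are later, such as Fosl2, or more constitutive, such as Jund. All were taken by name from a written list, without the Nr4a nuclear receptors of the same response. A gene entered through every probe set annotated to its symbol alone. All 38 were found among the 23152 genes of the array, with 1 to 13 probe sets each and 206 in all. RNA was measured in the soleus, a slow hindlimb muscle, of male mice aged 18 weeks after an overnight fast of 14 h. The control mice (WT, 3 animals) were Gna13 flox/flox, with both copies of Gna13 flanked by loxP sites and no Cre. The knockout mice (MKO, 3 animals) were Ckmm-Cre; Gna13 flox/flox, with Cre driven by the muscle creatine kinase promoter, so that cells of the muscle that are not fibres keep the gene. Both groups thus carry the floxed alleles, and no group carried Cre alone. Each animal had 1 array.

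Immediate early genes form the first layer of transcription after contraction, growth factors, hormones, stretch or stress. Kinases such as ERK and p38 and rises in calcium or cyclic AMP act on factors already bound at their promoters, mainly serum response factor with its ternary complex partners and CREB. The products are largely transcription factors of the Fos, Jun, Egr and Klf families, together with phosphatases and RNA decay factors that shut the response down again. Working muscle induces many of them, and Gα13, the protein encoded by Gna13, couples receptors to RhoA, a route that can reach serum response factor.

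The arrays did not all lie alike. MKO replicate 1 stood apart on the first principal component of all genes (33.6, against -19.7 to 14.4 for the other arrays) and MKO replicate 2 on the second (31.4, against -12.8 to 1.09), so the main counts are also given without each. The probe sets of Gna13 went both ways. At an unadjusted p under 0.05, 17257825 was lower in MKO, at 3.43 to 4.33 against 5.48 to 6.23 in WT, and 17257824 (0.65, SE 0.20), 17257828 (0.51, SE 0.13) and 17257829 (0.67, SE 0.13) were higher. The mean over the 7 probe sets differed by 0.04 (SE 0.13), and the exons behind them are not named in the annotation used, so that mean does not check the labels. The 8 markers of muscle fibres had a mean of 10.79 to 10.81 in WT and 10.74 to 10.82 in MKO, where the median probe set of an array lay at 4.87 to 4.95. All values are log2 values of robust multi-array averaging, and a difference is MKO minus WT on that scale.

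Promoters are shown because binding sites close to the start carry much of the control of these genes. RefSeq's promoter table of assembly GRCm38.p6 held 29 of the 38 members. The 250 bases before the transcription start are printed 5′ to 3′ for the 4 members with the smallest p that the table held. They are Fosl2 (chr5:32136222-32136471, plus strand), Junb (chr8:84978749-84978998, minus strand), Dusp6 (chr10:99262981-99263230, plus strand) and Btg2 (chr1:134079156-134079405, minus strand). Capitals mark a full cyclic AMP response element, TGACGTCA, or its half-site TGACG.
Fosl2: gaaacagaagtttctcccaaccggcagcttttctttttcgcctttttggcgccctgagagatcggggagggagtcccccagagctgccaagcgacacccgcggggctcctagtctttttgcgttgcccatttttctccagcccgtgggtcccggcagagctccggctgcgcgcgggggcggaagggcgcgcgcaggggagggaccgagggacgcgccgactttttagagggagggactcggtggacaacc
Junb: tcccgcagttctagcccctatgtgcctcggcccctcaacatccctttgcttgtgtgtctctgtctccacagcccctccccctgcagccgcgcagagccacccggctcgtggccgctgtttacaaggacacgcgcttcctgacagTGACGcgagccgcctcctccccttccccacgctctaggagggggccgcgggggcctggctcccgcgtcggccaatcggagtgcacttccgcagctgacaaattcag
Dusp6: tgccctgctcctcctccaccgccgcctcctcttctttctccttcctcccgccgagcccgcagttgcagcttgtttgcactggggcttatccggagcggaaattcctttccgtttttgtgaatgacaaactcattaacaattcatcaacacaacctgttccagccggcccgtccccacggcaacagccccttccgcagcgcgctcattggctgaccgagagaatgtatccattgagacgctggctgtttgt
Btg2: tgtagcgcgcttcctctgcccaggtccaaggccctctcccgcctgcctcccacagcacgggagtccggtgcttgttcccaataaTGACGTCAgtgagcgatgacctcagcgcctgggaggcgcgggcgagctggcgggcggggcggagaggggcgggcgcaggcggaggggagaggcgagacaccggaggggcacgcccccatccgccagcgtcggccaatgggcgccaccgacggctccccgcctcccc
Btg2 holds a full element 166 bases before the start and Junb a half-site 106 bases before it, while the windows of Fosl2 and Dusp6 hold neither. On both strands, the full element was found in 3 of the 29 members (10.3%: Btg2, Maff and Dusp1), against 1.77% of the 27025 genes in the table. The half-site, which every full element contains, was in 17 of 29 members (58.6%) against 19.8% of genes, and in 4 of the 7 members with a lower value described next that the table held. The CArG box bound by serum response factor was in 3 (Egr2, Zfp36 and Dusp5; 10.3%) against 1.62%, and the AP-1 site TGANTCA in 2 (Csrnp1 and Zfp36l1; 6.9%) against 7.82%. Of the same 7 members with a lower value, the full element was in 1, and the CArG box and the AP-1 site were in 0. The promoter table did not hold Klf10, Fosl1, Sik1, Egr1 and Ier2, which also had a lower value. A match describes these letters in this window and is not evidence of binding. Sites further from the start were not searched, so a gene without a match here may hold one elsewhere.

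In MKO soleus, immediate early genes were lower more often than higher, but no member passed the test over all genes. Of the 38 members, 12 were lower and 0 higher at an unadjusted p under 0.05 (31.6% lower), where 2.41% of all genes were lower and 1.92% higher at that p. The 12 were Klf10, Fosl2, Junb, Dusp6, Btg2, Fos, Fosl1, Gadd45b, Klf2, Sik1, Egr1 and Ier2. All 38 members lay above the median level of all genes, where genes also leaned lower. Of the 11576 genes above that level, 371 were lower (3.2%) and 129 higher at an unadjusted p under 0.05. At an adjusted p under 0.05 by limma, 0 members and 0 genes (0%) were called, while 558 genes were lower and 444 higher at the unadjusted p. Each of the 12 members had an adjusted p of 0.9997, and the local pooled error (LPE) test named in the labels called 25 genes, 1 of them a member, Egr1, whose groups overlap. The median difference of the members was -0.18, against -0.01 for all genes and -0.038 for genes above the median level. In all, 26 of 38 members were lower at any p (68.4%), and 53.4% of all genes were.

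Counts of lower members depended on single animals. Without WT replicate 2, the array with the highest value for 13 of the 38 members, 4 members were lower at an unadjusted p under 0.05 (Klf10, Fosl2, Junb and Fosl1), and the median difference was -0.12. Without MKO replicate 2 there were 7, of which 6 were among the 12, and without MKO replicate 1 there were 10, of which 8 were. Scaling moved the split of 12 lower and 0 higher to 9 and 2 after quantile normalization and to 8 and 1 after median centring. Over all genes, the split of 558 lower and 444 higher became 575 and 583 after quantile normalization and 354 and 545 after median centring. The mean of the 38 members was 6.09, 6.24 and 6.16 in WT replicates 1 to 3 and 5.97, 5.95 and 6.04 in MKO. Every MKO array thus lay below every WT array in the deposited values, by 0.06 at the nearest, but the groups overlapped after quantile normalization and after median centring.

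**Figure D1:**
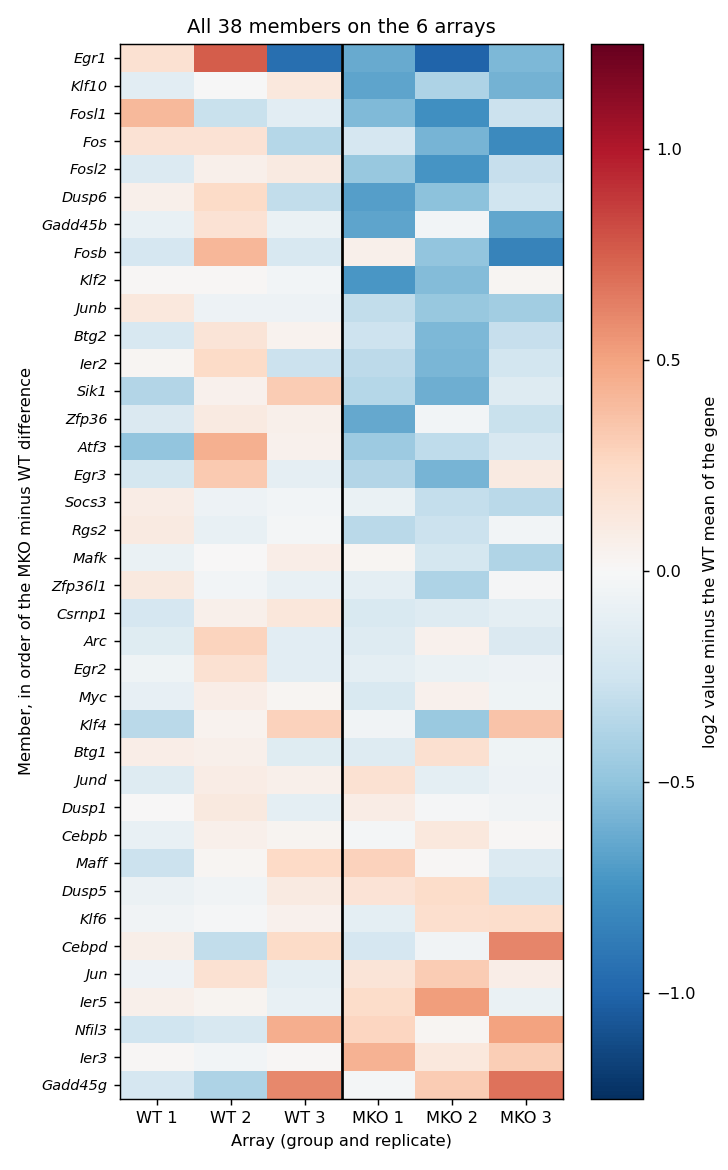
Log2 value of each of the 38 members on the 6 arrays minus the WT mean of that gene (colour), with members ordered by their difference and a line between the 3 WT and the 3 MKO arrays. The upper rows, led by Egr1, are mostly blue in MKO, and Egr1 is also blue in WT replicate 3; the lower rows, ending with Gadd45g, are mixed.

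**Figure D2:**
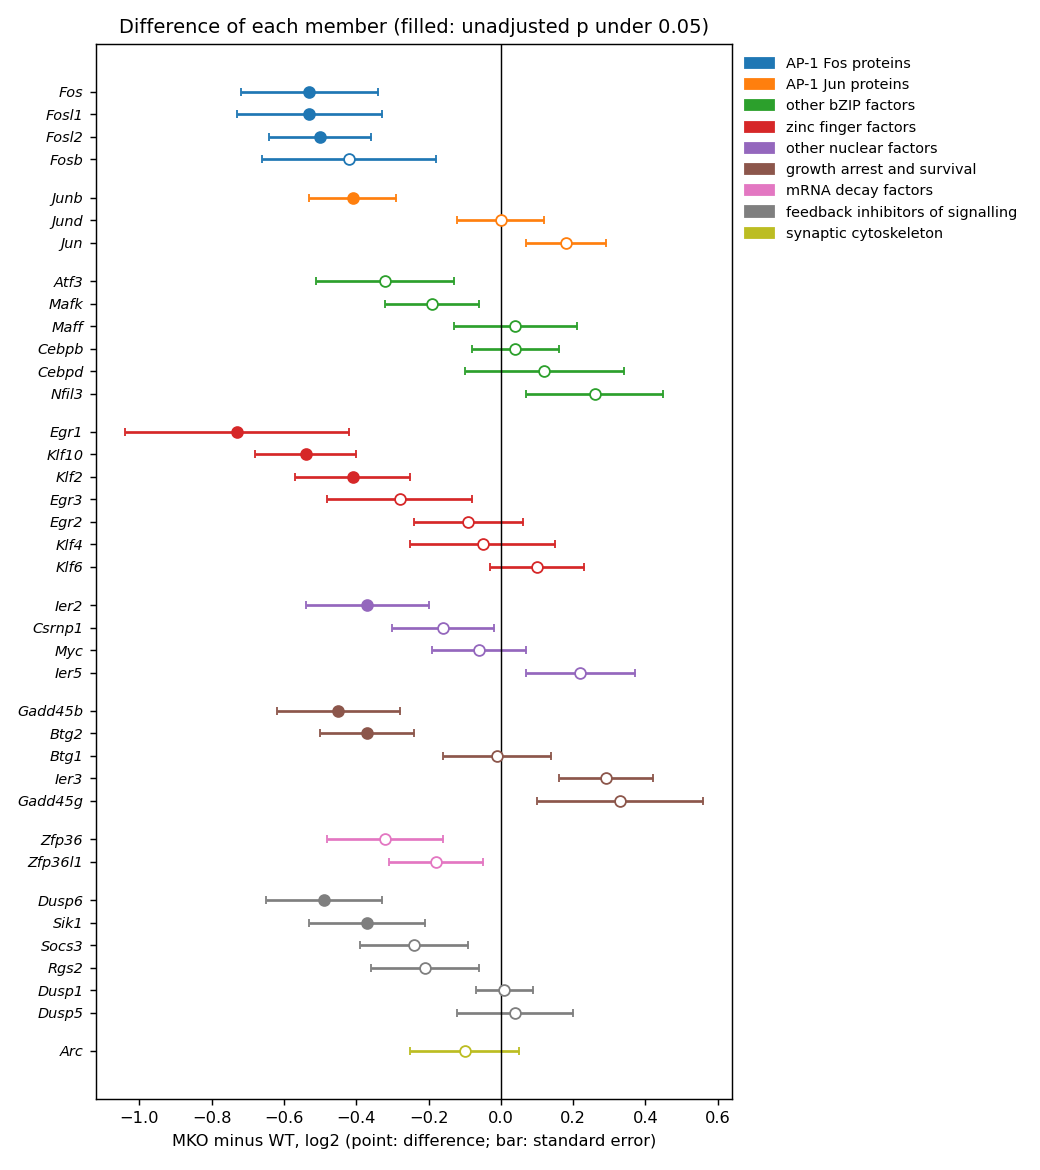
Difference between MKO and WT for each member on the log2 scale, with its standard error as a bar, grouped by role (colour); filled points have an unadjusted p under 0.05. All 4 Fos proteins lie left of 0, with Junb to the left and Jun to the right among the Jun proteins.

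The Fos proteins, which pair with Jun proteins to form the AP-1 factor, were the role group with the lowest median, -0.51. All 4 of its members were lower, 3 of them at an unadjusted p under 0.05. Of all genes, 53.4% were lower at any p and 2.41% at that p. The mean of the 4 Fos proteins was 5.65, 5.69 and 5.46 in WT replicates 1 to 3 and 5.31, 4.96 and 5.05 in MKO. The groups stayed apart after quantile normalization and after median centring. Fosl2 encodes Fra-2, a late and lasting member of the family whose promoter window is printed above. It was at 6.64, 6.87 and 6.92 in WT and 6.34, 6.07 and 6.52 in MKO, a difference of -0.50 (SE 0.14, 1.41-fold lower). The groups did not overlap, all 6 probe sets were lower, and the unadjusted p was under 0.05 in all 15 alternatives of the limma fit. Fos, the founding early gene, was at 5.75, 5.75 and 5.22 in WT and 5.36, 4.99 and 4.78 in MKO (-0.53, SE 0.19). WT replicate 3 lay below MKO replicate 1, so the groups overlapped, and 7 of 8 probe sets were lower. The unadjusted p was above 0.05 without WT replicate 1, without WT replicate 2 and without MKO replicate 3. It was under 0.05 in 10 of the 15 alternatives. Fosl1, which encodes Fra-1, was at 5.67, 4.98 and 5.13 in WT and 4.71, 4.49 and 4.99 in MKO (-0.53, SE 0.20). WT replicate 2 lay just below MKO replicate 3. The value rests on 2 probe sets, at -0.12 and -0.94, and without WT replicate 1 its difference was -0.32 and its unadjusted p above 0.05. Without dim probe sets it was -0.12, and without MKO replicate 2 its unadjusted p was also above 0.05. Fosb, which also gives the stable ΔFosB form, did not reach that p, at -0.42 (SE 0.24). It was -0.66 and under that p without MKO replicate 1, and -0.21 without WT replicate 2 or without MKO replicate 3.

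Jun proteins, the partners of Fos, did not share 1 direction. Junb, which in muscle is known as a factor that maintains fibre size, was at 6.63, 6.43 and 6.43 in WT and 6.19, 6.02 and 6.06 in MKO. The difference was -0.41 (SE 0.12, 1.32-fold lower), with no overlap and all 3 probe sets lower, and -0.65 by the median of its probe sets. Jun was at 8.25, 8.51 and 8.19 in WT and 8.48, 8.63 and 8.40 in MKO, a difference of 0.18 (SE 0.11) with overlapping groups and none of its 5 probe sets lower. It was higher at an unadjusted p under 0.05 without WT replicate 2 (0.28), after quantile normalization (0.22) and with array weights (0.24). Jund, the most constitutive of the family, differed by 0.00 (SE 0.12), with 3 of 6 probe sets lower. Whether Junb and Jun differ from each other in their response was not tested.

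**Figure D3:**
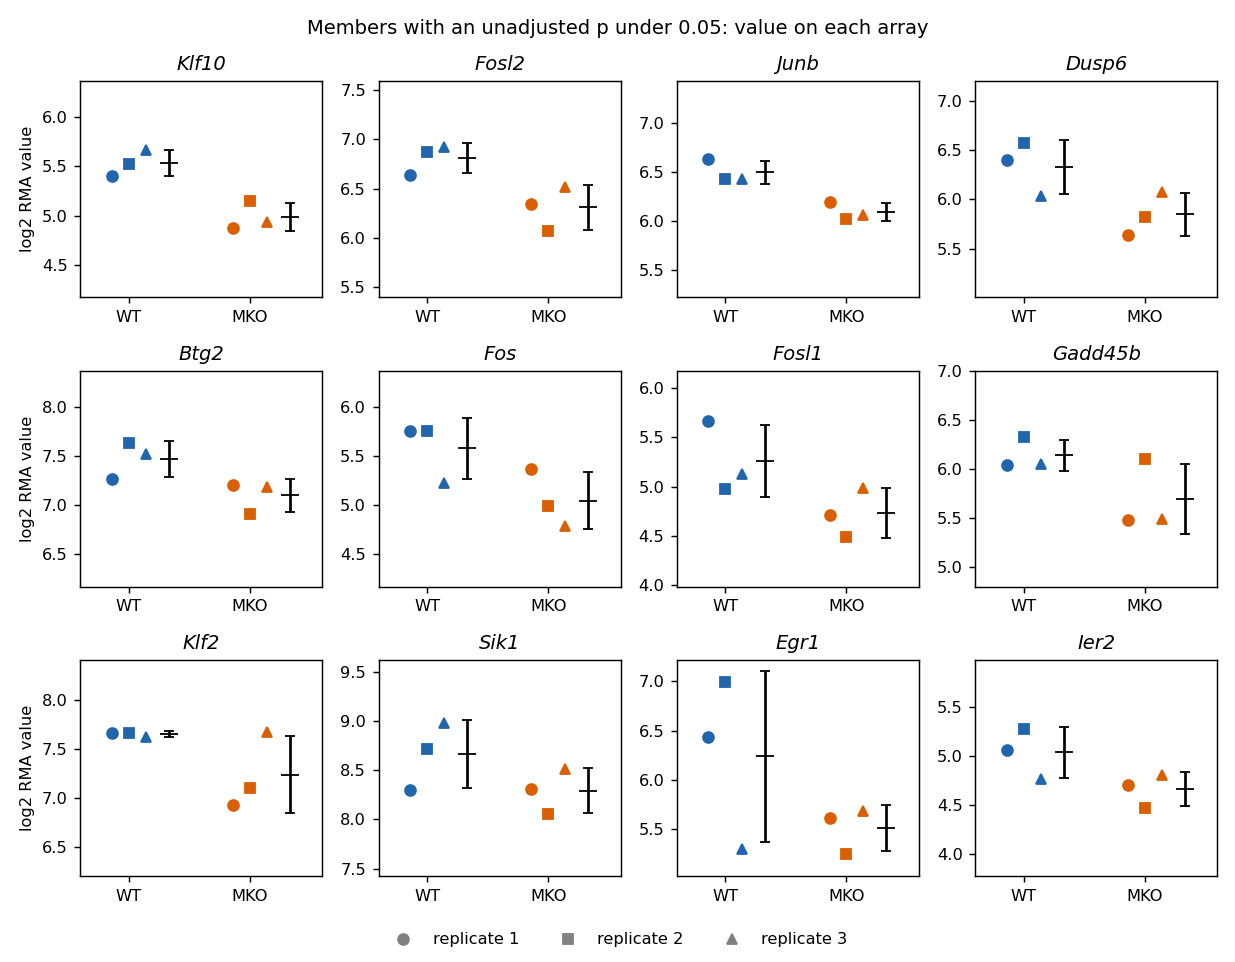
Log2 value of the 12 members with an unadjusted p under 0.05 on each array (points), with the mean and SD of 3 animals beside them. Point shape gives the replicate number, which was not treated as a pairing, and each panel spans the same range of log2 units. Klf10, Fosl2, Junb and Btg2 have every MKO array below every WT array, Klf2 has MKO replicate 3 at the WT level, and Egr1 has WT replicate 3 at the MKO level.

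Among the zinc finger factors, 6 of 7 were lower and 3 at an unadjusted p under 0.05. Over all genes, 53.4% were lower at any p and 2.41% at that p. The mean of the 7 factors was 5.95 to 6.25 in WT and 5.65 to 5.99 in MKO, which overlap. Klf10, a repressor first described as an early target of TGF-beta, had the smallest p of the members. It was at 5.40, 5.53 and 5.67 in WT and 4.87, 5.15 and 4.94 in MKO, a difference of -0.54 (SE 0.14, 1.46-fold lower). The groups did not overlap, all 8 probe sets were lower, from -1.23 to -0.10, and the unadjusted p was under 0.05 in all 15 alternatives. By the median of its probe sets the difference was -0.89. Egr1, the classic target of serum response factor, had the largest difference of the members, -0.73 (SE 0.31), and the widest WT spread. Its values were 6.43, 6.99 and 5.29 in WT and 5.61, 5.24 and 5.68 in MKO, so WT replicate 3 lay within the MKO range. The difference was -0.35 without WT replicate 2 and -1.20 without WT replicate 3, and the unadjusted p was above 0.05 without WT replicate 1, WT replicate 2 or MKO replicate 2. It was also above 0.05 without the variance trend, with robust moderation, after either other scaling and by the median of probe sets. Of the 15 alternatives of the limma fit, 7 had Egr1 lower at an unadjusted p under 0.05. Klf2, a flow-induced factor of endothelium that is also found in muscle, was at 7.67, 7.67 and 7.62 in WT and 6.93, 7.11 and 7.68 in MKO (-0.41, SE 0.16). MKO replicate 3 had the highest value of all 6 arrays, and the difference was -0.26 without MKO replicate 1 and -0.63 without MKO replicate 3. Without WT replicate 1, WT replicate 2, MKO replicate 1 or MKO replicate 2, the unadjusted p was above 0.05. It was under 0.05 in 8 of the 15 alternatives. Egr3, needed for muscle spindles, was at -0.28 (SE 0.20) and Egr2 at -0.09 (SE 0.15). Egr3 was -0.47 at an unadjusted p under 0.05 without MKO replicate 3, and -0.12 without WT replicate 2. Klf4 was at -0.05 (SE 0.20) and Klf6 at 0.10 (SE 0.13). For Egr2, 8 of 10 probe sets were lower while 17233995, at a WT mean of 2.12, was higher by 1.78 (SE 0.66).

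Feedback inhibitors act on the signals that induce the response, and 4 of these 6 were lower, 2 of them at an unadjusted p under 0.05. By comparison, 68.4% of all members and 53.4% of all genes were lower at any p. The mean of the 6 inhibitors was 6.50, 6.56 and 6.52 in WT and 6.32, 6.28 and 6.35 in MKO, apart also under both other scalings. Such separation was not general among the roles. The means of the Jun proteins, other bZIP factors and zinc finger factors overlapped between the groups under every scaling. So did those of the other nuclear factors, the growth arrest and survival genes and Arc. Dusp6, the phosphatase that removes the activating phosphates from ERK, was at 6.40, 6.57 and 6.03 in WT and 5.64, 5.82 and 6.08 in MKO (-0.49, SE 0.16, 1.41-fold lower). WT replicate 3 lay just below MKO replicate 3, and 5 of 6 probe sets were lower, the exception at a WT mean of 2.60. The unadjusted p was above 0.05 without WT replicate 2. Sik1, a kinase induced by cyclic AMP that restrains the CREB coactivators, was at 8.30, 8.72 and 8.98 in WT and 8.31, 8.06 and 8.51 in MKO (-0.37, SE 0.16). The groups overlapped, 12 of 13 probe sets were lower, and without WT replicate 3 the difference was -0.21. The unadjusted p was above 0.05 when any single array but WT replicate 1 or MKO replicate 3 was left out. It was under 0.05 in 5 of the 15 alternatives of the limma fit. Socs3, which blocks cytokine signalling through JAK and STAT3, had every MKO array below every WT array but a difference of -0.24 (SE 0.15). Rgs2, which speeds the inactivation of G protein alpha subunits of the Gq class, was at -0.21 (SE 0.15), and at -0.34 with an unadjusted p under 0.05 when dim probe sets were left out. Dusp1, which acts on p38 and JNK, differed by 0.01 (SE 0.08), with every array between 9.29 and 9.53, and Dusp5 by 0.04 (SE 0.16).

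Growth arrest and survival genes went both ways. Btg2, an antiproliferative factor that recruits the deadenylase complex and whose promoter window holds the full element shown above, was at 7.27, 7.63 and 7.52 in WT and 7.21, 6.91 and 7.19 in MKO. The difference was -0.37 (SE 0.13, 1.29-fold lower), with the groups apart and all 4 probe sets lower, and the unadjusted p was above 0.05 without WT replicate 2 or MKO replicate 2. Gadd45b, a stress protein that activates p38 signalling, was at 6.04, 6.32 and 6.05 in WT and 5.48, 6.10 and 5.49 in MKO (-0.45, SE 0.17). MKO replicate 2 alone reached the WT range, and 5 of 6 probe sets were lower. With array weights it was -0.29, with an unadjusted p above 0.05. That p was also above 0.05 without WT replicate 2, MKO replicate 1 or MKO replicate 3, and under 0.05 in 11 of the 15 alternatives. Ier3, an early gene tied to ERK signalling and survival, was the 1 member with every MKO array above every WT array. It was at 5.38, 5.33 and 5.38 in WT and 5.80, 5.50 and 5.67 in MKO (0.29, SE 0.13). Its unadjusted p was under 0.05 after quantile normalization, after median centring and without MKO replicate 2 (0.37). Gadd45g, a stress-induced relative of Gadd45b, was at 0.33 (SE 0.23), with WT values of 6.47 to 7.45 and MKO values of 6.83 to 7.53, and Btg1 at -0.01 (SE 0.15). Gadd45g was higher at an unadjusted p under 0.05 without WT replicate 3 (0.62) and with the replicate block (0.33), and was 0.14 without WT replicate 2.

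The remaining members had smaller or less even differences. Ier2, a small nuclear protein, was at 5.06, 5.28 and 4.77 in WT and 4.71, 4.47 and 4.81 in MKO (-0.37, SE 0.17). That difference rests on 1 of 3 probe sets, 17511131, with a mean of 5.28 in WT and 4.27 in MKO, with the others at -0.11 and 0.01, and it was 0.0056 when dim probe sets were left out and -0.72 by the median of its probe sets. The unadjusted p was above 0.05 without WT replicate 1, WT replicate 2, MKO replicate 1 or MKO replicate 2. It was under 0.05 in 6 of the 15 alternatives of the limma fit. Of the other nuclear factors, Csrnp1 was at -0.16 (SE 0.14), Myc at -0.06 (SE 0.13) and Ier5 at 0.22 (SE 0.15). Ier5 was 0.38 and under that p without MKO replicate 3, and 0.08 without MKO replicate 2. Both mRNA decay factors, which bind AU-rich elements in unstable messages, were lower without reaching the unadjusted p: Zfp36 (tristetraprolin) at -0.32 (SE 0.16) and Zfp36l1 at -0.18 (SE 0.13). Zfp36 was under that p without WT replicate 1 (-0.41) or MKO replicate 2 (-0.46). Its difference was -0.16 when MKO replicate 1 was left out. Zfp36l1 was -0.28 and under that p with array weights. Their mean was apart between the groups, at 6.57 to 6.64 in WT and 6.22 to 6.45 in MKO. With all arrays, no member of the other bZIP group reached that p. The stress factor Atf3 was at -0.32 (SE 0.19), with WT values from 6.71 to 7.65 and MKO values from 6.75 to 7.01, and Mafk, a small Maf protein, at -0.19 (SE 0.13). Atf3 was -0.57 and under that p without WT replicate 1, and -0.10 without WT replicate 2. Mafk was -0.30 and under that p without MKO replicate 1, and -0.10 without MKO replicate 3. Maff, another small Maf, was at 0.04 (SE 0.17), Cebpb at 0.04 (SE 0.12), Cebpd, read by 1 probe set, at 0.12 (SE 0.22) and the clock-linked repressor Nfil3 at 0.26 (SE 0.19). Nfil3 was 0.49 and under that p without WT replicate 3, and 0.14 without WT replicate 1 or without MKO replicate 3. Arc, a cytoskeletal protein known from synapses, was at -0.10 (SE 0.15).

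Across members, the 3 MKO arrays lay below the 3 WT arrays for 5 of 38 (13.2%), where 4.99% of all genes did, and above them for 1, where 4.26% did. The 5 were Klf10, Fosl2, Junb, Btg2 and Socs3. Such separation was not particular to the members. Of 42 other primary response genes, described below, 9 had the 3 MKO arrays below the 3 WT arrays and 0 above, a larger share than among the members. An exact permutation test of 3 against 3 animals cannot give a two-sided p below 0.1. WT replicate 2 was the highest array for 5 of the 12 lower members, and MKO replicate 2 was the lowest of all 6 arrays for 7 of the 12. The median SD within groups was 0.20 for the members and 0.17 for genes within 0.5 of the members' median level.

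Single probe sets of the 12 genes mostly lay on 1 side. Of their 68 probe sets, 63 were lower in MKO, a count that the choice of lower genes favours, and 7 of the 12 genes had every probe set lower. Over all 206 probe sets of the 38 members, 138 were lower (67%), against 52.1% of all 233753 probe sets with 1 gene symbol. At an unadjusted p under 0.05, 19 were lower (9.22%) and 1 higher, where 2.87% of all probe sets were lower and 2.11% higher. Of these, 3 belonged to genes outside the 12. A single Csrnp1 probe set, 17532263, was at -1.12 (SE 0.32), while 3 of the 6 of that gene were higher. Egr2 had 17234003 at -0.97 (SE 0.39) and 17233995, already given, in the other direction. No probe set passed when adjusted over all of them by limma (lowest adjusted p of a member's probe set 0.979).

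**Figure D4:**
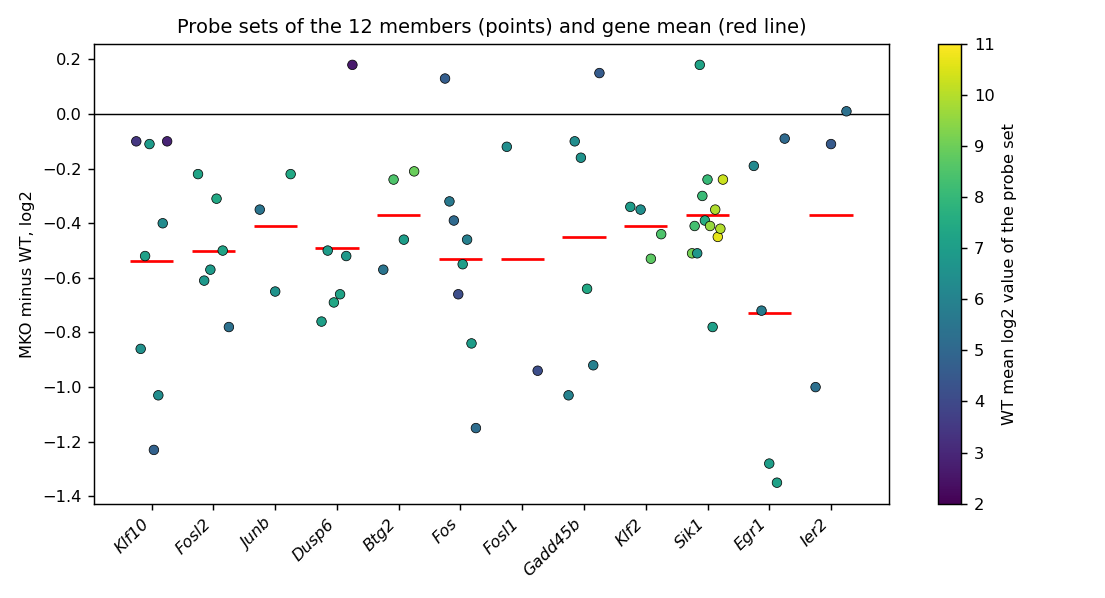
Difference between MKO and WT of every probe set of the 12 members (points, coloured by the WT mean of the probe set, log2) with the mean of the gene as a red line. All 6 Fosl2 and all 8 Klf10 probe sets lie below 0, whereas Ier2 rests on 1 of 3 and Fosl1 has 1 of 2 near 0.

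Lists of related genes had medians closer to 0 than the members, by a margin that depended on the setting. For comparison, 53.4% of all genes were lower at any p and 2.41% at an unadjusted p under 0.05. Of 42 other primary response genes, 4 were lower and 0 higher at an unadjusted p under 0.05 (9.52% lower), with a median of -0.10 and 31 lower at any p, 26 after either other scaling. They were Spry4, an inhibitor of receptor kinase signalling (-0.51, SE 0.14), Bhlhe40, a repressor of the clock (-0.50, SE 0.14), the kinase gene Plk2 (-0.55, SE 0.17) and the CBP-binding factor gene Cited2 (-0.29, SE 0.09). Spry4 was at 5.91, 6.15 and 5.91 in WT and 5.29, 5.51 and 5.64 in MKO, with no overlap. The count was 2 by the median of probe sets and 8 with array weights, and 6 without WT replicate 3 or without MKO replicate 1. Upstream, of 34 measured kinases and factors that drive the response, 0 were lower or higher at that p, but 4 were lower without WT replicate 3. Their median was -0.07 with 29 lower at any p, and -0.02 with 22 lower after quantile normalization. The NF-kappaB subunit gene Rela (-0.22, SE 0.11) and the kinase gene Mapk9 (-0.33, SE 0.17), which encodes JNK2, had the smallest p, followed by Mkl2 (-0.20, SE 0.12), a coactivator of serum response factor, and Camk2d (-0.25, SE 0.17), a calcium-dependent kinase. Among 21 measured dimer partners and corepressors, also with 0 in either direction, the median was -0.02. Nfe2l2 (0.19, SE 0.10), Max (0.20, SE 0.11), Nab2 (-0.17, SE 0.12), the corepressor of Egr factors, and Mafa (-0.16, SE 0.13) had the smallest p. By the median of probe sets, the medians were -0.14 for the partners and -0.11 for the upstream list, against -0.15 for the members. In that setting 2 partners were lower at an unadjusted p under 0.05, and after quantile normalization 2 were higher.

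**Figure D5:**
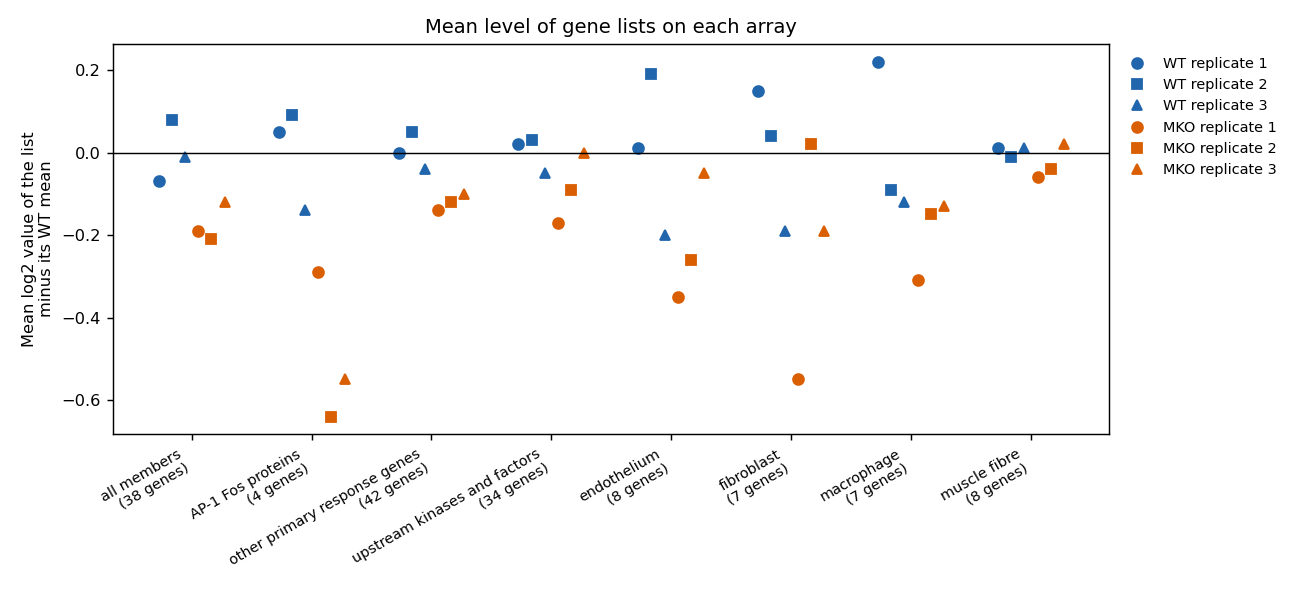
Mean log2 value of 8 gene lists on each array minus the WT mean of the list (points; blue WT, orange MKO, shape by replicate number). The MKO arrays lie below the WT arrays for the 38 members, the Fos proteins and the other primary response genes, and the groups overlap for endothelium, fibroblasts and muscle fibres. For macrophage markers the highest MKO mean (-0.13) lies just below the lowest WT mean (-0.12).

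Markers of some other cell types were also lower in MKO, where 53.4% of all genes were lower at any p. All 8 endothelial markers were lower at any p, with a median of -0.16 and a mean of 6.80 to 7.19 in WT and 6.66 to 6.95 in MKO, which overlap. Cldn5, a tight junction gene, was the endothelial marker with the smallest p (-0.73, SE 0.15), followed by Tek (-0.24, SE 0.13). The endothelial median was -0.09 without MKO replicate 1, -0.09 with 5 of 8 lower without WT replicate 2, and -0.28 without WT replicate 3 or without MKO replicate 3. Fibroblast markers were lower in 6 of 7 (median -0.31, mean 7.85 to 8.19 in WT and 7.50 to 8.06 in MKO), led by Pdgfra (-0.34, SE 0.14). The fibroblast median was -0.12 without MKO replicate 1 and -0.19 without WT replicate 2. It was -0.46 without WT replicate 3, with 3 markers lower at an unadjusted p under 0.05. Without MKO replicate 2 it was -0.43, with 7 of 7 lower and 5 of them at that p. Macrophage markers were lower in 6 of 7 (median -0.13, mean 5.19 to 5.53 in WT and 5.01 to 5.19 in MKO), led by Cd68 (-0.82, SE 0.26). Against the WT mean, their highest MKO array (-0.13) lay just below their lowest WT array (-0.12). Schwann cell markers lay the other way, at 0.13 to 0.24 in MKO and -0.05 to 0.09 in WT. Without WT replicate 1 the macrophage median was 0.06, with 3 of 7 lower, and without WT replicate 2 it was -0.24. Smooth muscle and pericyte markers were lower in 5 of 7 (median -0.05) and tenocyte markers in 4 of 5 (median -0.12), with Thbs4 (-0.27, SE 0.12) under the unadjusted p. The smooth muscle and pericyte median was -0.12 without MKO replicate 2 and -0.02 without MKO replicate 3. The tenocyte median was 0.00, with 2 of 5 lower, without WT replicate 1, -0.03 without MKO replicate 2, and -0.27 and -0.22 without WT replicate 3 and MKO replicate 3. MKO replicate 1 had the lowest fibroblast, endothelial and macrophage means of all 6 arrays, at -0.55, -0.35 and -0.31 against the WT mean. The same means were 0.02, -0.26 and -0.15 in MKO replicate 2 and -0.19, -0.05 and -0.13 in MKO replicate 3. The members were at -0.19, -0.21 and -0.12 in MKO replicates 1 to 3. The lists for neutrophils (median 0.01), lymphocytes (0.06), satellite cells (-0.03), Schwann cells (0.19), adipocytes (-0.14) and muscle fibres (0.00) had 0 or 1 gene under an unadjusted p of 0.05 each, and the adipocyte median ran from -0.42 without MKO replicate 2 to 0.11 without MKO replicate 3. These were S100a8 (0.40, SE 0.18) for neutrophils, Cd3g (0.41, SE 0.18) for lymphocytes and Des (-0.23, SE 0.06) for muscle fibres. S100a8 and Cd3g were dim, with WT means of 1.81 and 2.78 where the median level of all genes was 4.41. No neutrophil or lymphocyte marker lay above that level. In whole muscle, fewer cells of a type and less RNA per cell cannot be told apart, and the part of these markers in the members' differences was not tested. RMA values have no 0, so no marker was at 0.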

How the data were processed

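RNA of 6 soleus muscles was hybridised to Affymetrix Mouse Gene 2.0 ST arrays. The authors deposited log2 values from robust multi-array averaging (RMA, a method that corrects background, normalizes across arrays and summarises probes) run in Affymetrix Expression Console, per the submitters' processing notes. The sources used here give no genome build or annotation release. The table held 269751 rows, several per gene; 233753 had 1 gene symbol in the platform annotation and were used, 5106 had several and 30892 none. A gene's value was the mean of its probe sets.

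MKO and WT were compared with limma 3.58.1 in R 4.3.3 (lmFit, eBayes with a variance trend), two-sided, with Benjamini-Hochberg adjustment over 23152 genes. Unadjusted p-values were used only to order, count and choose genes for description, and to compare the alternatives. The authors' LPE test per the labels served as an alternative in a re-implementation. Fits were tested on simulated data. The precision is limited by 3 arrays per group, from separate animals per the labels.

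The members, lists and tests were chosen with earlier results of these data known. Members at an unadjusted p under 0.05 are given with every array, related lists by up to 4 genes and marker lists by up to 2 with the smallest p. Promoters were printed for at most 4 members in order of p; the half-site was added after the values were seen. Other alternatives were the variance trend, robust moderation, array weights, a replicate block, quantile normalization, median centring, only genes or probe sets above the median level, the median of probe sets, and each array left out. Replicate numbers were not treated as pairs of animals except in the replicate block. Python 3.11.15 drew the figures.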

Additional observations from a re-analysis of the deposited data

How the results depend on the processing

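Of 569 differences of single members over 15 alternatives of the limma fit, 533 kept their sign and 36 changed it; among the 12 lower members, only Ier2 did. The cause was not tested for any change. Klf10, Fosl2 and Junb were lower at an unadjusted p under 0.05 in all 15, Sik1 in 5; by the LPE test, 8 of the 12 were, without Junb. Over all genes, the adjusted count of 0 became 1 with array weights and 25 with the LPE test, which called 1 member, Egr1; leaving out 1 array gave 0 to 1. The 0 higher members became 1 with array weights, 2 after quantile normalization, 1 after median centring and 2 with the LPE test; leaving out 1 array gave 0 to 2. When 1 array was left out, the count of 12 lower members became 4 to 11, and the median difference of all 38 members became -0.20 to -0.12.

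With the replicate number as a block, 11 members were lower, all among the 12, and 1, Gadd45g, was higher. The numbers gave no clear pairing. Deviations of same-numbered animals correlated at -0.0881, 0.0907 and -0.236 over genes. No WT array correlated best with the MKO array of its own number. Of the MKO arrays, only replicate 2 correlated best with the WT array of its own number (0.0907).

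Changed signs with array weights were Jund -0.0066, Myc 0.0093, Btg1 0.04 and Dusp1 -0.0056. After quantile normalization they were Klf4 0.00046 and Btg1 0.03, and after median centring Btg1 0.02. The median of probe sets gave Jund -0.03, Klf6 -0.01, Btg1 0.08 and Socs3 0.02, and bright probe sets gave Jund -0.04, Ier2 0.0056, Btg1 0.12 and Dusp5 -0.03. Leaving out 1 array gave Jund -0.09 to 0.06, Maff -0.09 to 0.17, Cebpb -0.0066 to 0.07, Cebpd -0.12 to 0.29, Egr2 -0.16 to 0.0028, Klf4 -0.25 to 0.16, Myc -0.12 to 0.0019, Btg1 -0.11 to 0.07, Dusp1 -0.05 to 0.07, Dusp5 -0.05 to 0.19 and Arc -0.17 to 0.04. Leaving out dim probe sets left 37 of 38 members measured.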
